A study of Mus musculus with 6 samples.

Results

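The Fas and caspase death pathway was followed here through 8 genes taken by symbol from the 52550 genes of the files, namely Fas, Fadd, Casp8, Cflar, Casp9, Casp6, Ripk1 and Mlkl. The cells were plasmacytoid dendritic cells, taken from spleens of the C57BL/6 strain, a cell type that answers viral nucleic acids with type I interferon. In 3 libraries the cells had received R837 (imiquimod, an agonist of the receptor TLR7) together with taurine, and in the other 3 they had received R837 alone, both for 12 hours. Both groups carry the TLR7 stimulus, unstimulated cells were not analysed here, and the labels give no age, dose or batch. All 8 genes passed the filter on low values, for which 3 or more of the 6 libraries had to reach a normalized count of 10.

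Fas is a surface receptor of the TNF receptor family. When Fas ligand binds it, the adaptor Fadd joins the receptor and brings in caspase-8, an initiator protease that switches on executioner caspases, among them caspase-6. Cflar (c-FLIP), a relative of caspase-8 without protease activity, restrains this step. Caspase-9 starts the parallel route that begins with cytochrome c release from mitochondria. The kinase Ripk1 sits at the branch between survival signalling, apoptosis and necroptosis, a lytic death in which the kinase Ripk3 activates the membrane-rupturing protein Mlkl.

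With taurine the receptor Fas and the necroptosis effector Mlkl were higher, by about the same factor, while no change of the adaptor, the initiator caspases, the inhibitor or Ripk1 passed the test. Of the 8 genes 2 were higher and 0 were lower at an adjusted p under 0.05 (limma, Benjamini-Hochberg over 15265 genes). At an unadjusted p under 0.05, which 23.7% of all genes reached, the numbers were also 2 and 0, and edgeR and DESeq2 on the recovered reads also called 2 higher and 0 lower. With trends in exon length and GC content removed, 4 of the 8 had an unadjusted p under 0.05 (limma), as had 3496 of 15238 genes. Of all tested genes 6.41% were called, 3.75% as higher and 2.66% as lower with taurine, and edgeR and DESeq2 called 6.22% and 15.1% of the genes they tested. The median log2 change of the 8 genes was 0.07, against -0.01 over all tested genes. Changes throughout are R837 plus taurine minus R837 on the log2(normalized count + 1) scale. Whether libraries of a group stem from different animals or cultures is not stated, so the p-values cover only the spread between these libraries, which may be technical.

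**Figure D1:**
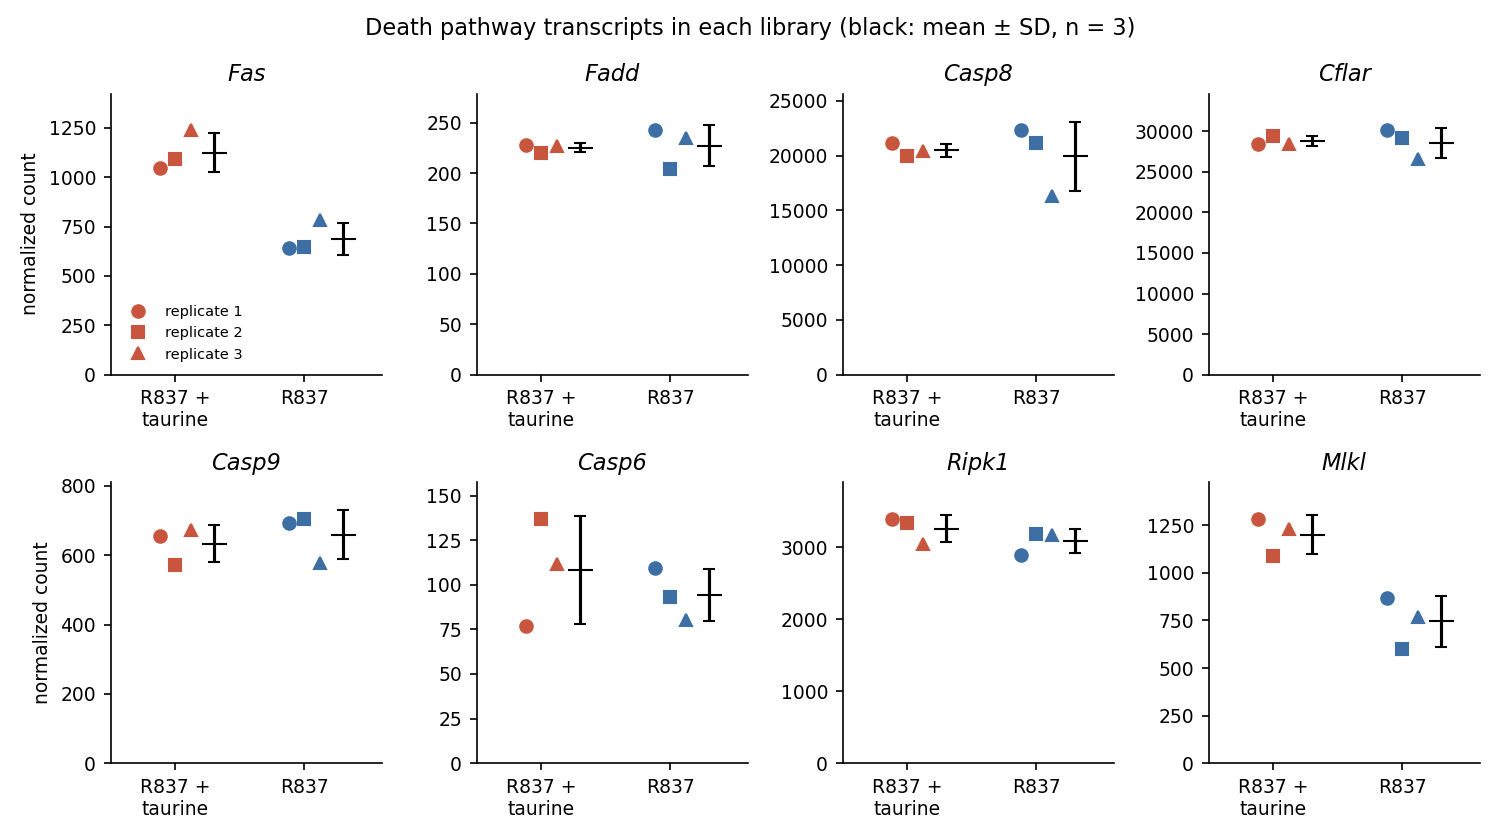
Normalized count of each of the 8 genes in each library, R837 plus taurine in red and R837 in blue, with the replicate number as the marker shape and the mean ± SD (n = 3) in black. For Fas the taurine libraries lay between 1045 and 1238 and the R837 libraries between 639 and 782, and for Mlkl the taurine libraries lay between 1088 and 1285 and the R837 libraries between 601 and 868, while the groups of the other genes overlapped.

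Fas (ENSMUSG00000024778.12, mm10 chromosome 19, 34290659 to 34327770, plus strand) had normalized counts of 1045, 1091 and 1238 in the libraries with taurine, against 639, 645 and 782 in those with R837 alone. Every taurine library lay above every R837 library, and the R837 library nearest to them was replicate 3. The mean was 1124 ± 101 with taurine and 689 ± 80.9 with R837 (SD, n = 3 each). This is a log2 change of 0.71 ± 0.12 (SE, adjusted p = 0.0167, limma), or 1.64-fold with a 95% interval of 1.34 to 1.99. With 1 library left out the change lay between 0.64 and 0.80, and the adjusted p between 0.0100 and 0.0767. The call held only without taurine replicate 1 or without R837 replicate 3.

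Mlkl (ENSMUSG00000012519.14, chromosome 8, 111311797 to 111338177, minus strand) had 1285, 1088 and 1230.3 in the taurine libraries and 868, 601 and 769 in the R837 libraries. Here too the groups did not overlap, and R837 replicate 2 was the lowest of the 6. Means were 1201 ± 102 and 746 ± 135 (SD, n = 3), and the log2 change was 0.70 ± 0.15 (SE, adjusted p = 0.0308, limma), or 1.62-fold with an interval of 1.29 to 2.05. With 1 library left out the change ran from 0.55 to 0.82 and the adjusted p from 0.0376 to 0.105. The call held only without R837 replicate 1 or without R837 replicate 3. Of the 8 genes 2 had groups that did not overlap, both with taurine above. Over all tested genes this held for 29.6%, with taurine above in 14.6% and below in 15%.

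The promoters of the genes that rose are shown next, with those of Cflar and Ripk1 because these hold an interferon-type match. The sequences are RefSeq's, build GRCm38.p6 (the assembly behind mm10), from 250 bases before to 50 bases after an annotated start, 5′ to 3′ on the gene's own strand. All 8 genes matched, with 9 windows because Ripk1 has an upstream and a downstream start. Capitals mark a match, on either strand, to 1 of 3 motifs. These are an interferon-stimulated response element (GAAA, any 2 bases, GAAA), a STAT-type gamma-activated site (TTCNNNGAA) and an NF-kB-type site (GGG, any 2 bases, TT, any base, CC).
Fas, chr19:34290409-34290708, plus strand: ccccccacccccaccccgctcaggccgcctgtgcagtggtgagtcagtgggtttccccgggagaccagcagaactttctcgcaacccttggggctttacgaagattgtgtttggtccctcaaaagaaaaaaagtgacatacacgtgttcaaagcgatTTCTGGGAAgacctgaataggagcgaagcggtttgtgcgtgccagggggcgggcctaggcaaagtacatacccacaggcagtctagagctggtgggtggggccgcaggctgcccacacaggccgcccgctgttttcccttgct
Mlkl, chr8:111338156-111338455, minus strand: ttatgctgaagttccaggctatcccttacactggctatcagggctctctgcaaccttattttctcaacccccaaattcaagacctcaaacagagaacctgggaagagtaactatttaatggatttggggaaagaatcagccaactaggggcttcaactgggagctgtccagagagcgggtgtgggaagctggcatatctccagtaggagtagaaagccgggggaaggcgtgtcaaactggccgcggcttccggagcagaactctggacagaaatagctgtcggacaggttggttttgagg
Cflar, chr1:58711241-58711540, plus strand: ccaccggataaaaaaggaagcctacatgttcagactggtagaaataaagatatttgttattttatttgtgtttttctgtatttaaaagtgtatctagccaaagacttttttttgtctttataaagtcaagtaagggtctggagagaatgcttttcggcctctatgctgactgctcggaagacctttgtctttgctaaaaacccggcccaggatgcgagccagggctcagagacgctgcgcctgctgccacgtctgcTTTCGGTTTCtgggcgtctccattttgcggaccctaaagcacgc
Ripk1 downstream start, chr13:34002624-34002923, plus strand: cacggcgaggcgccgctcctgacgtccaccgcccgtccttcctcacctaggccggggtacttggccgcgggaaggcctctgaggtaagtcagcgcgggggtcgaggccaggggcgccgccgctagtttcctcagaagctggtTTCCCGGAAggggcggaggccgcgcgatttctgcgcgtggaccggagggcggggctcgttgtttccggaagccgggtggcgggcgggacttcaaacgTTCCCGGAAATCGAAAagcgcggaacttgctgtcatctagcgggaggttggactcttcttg

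The Fas window held 1 match, TTCTGGGAA, a gamma-activated site that begins 93 bases before the start. No capitals stand in the Mlkl window, since none of the 3 motifs matched there. In Cflar the reverse complement of the interferon motif, TTTCGGTTTC, begins 6 bases after the start. In the downstream Ripk1 window the interferon match GAAATCGAAA begins 5 bases before the start and overlaps a gamma-activated match, TTCCCGGAA, and another TTCCCGGAA begins 108 bases before the start. Among all 32851 promoter windows of this length, 3.44% held the interferon motif, 8.30% the gamma-activated motif and 4.79% the NF-kB motif. The windows of Fadd, Casp8, Casp9, Casp6 and the upstream Ripk1 start held no match. The Casp8 window, chr1:58802252-58802551, lies inside the gene, which begins at 58795374, so the region before that gene start was not searched. Matches are a description of these windows, and no relation between motifs and changes was tested.

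The components that join Fas at the membrane showed close values in both groups. Fadd, the adaptor that links the receptor's death domain to caspase-8 (ENSMUSG00000031077.7, chromosome 7, 144577318 to 144582463, minus strand), had 228, 219.9 and 227 with taurine and 242, 204 and 234 with R837. The taurine libraries lay within the range of the R837 libraries, and the fold was 0.994 with a 95% interval of 0.779 to 1.27 (adjusted p = 0.985, limma). Exons of Fadd share 239 bases with the antisense gene Faddos, which had 12.1 to 39.3, against 16.4 to 35.4 with R837, so some of these few reads are uncertain.

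Casp8, the initiator caspase (ENSMUSG00000026029.14, chromosome 1, 58795374 to 58847503, plus strand), had 21142, 19923 and 20396 with taurine and 22327, 21147 and 16336 with R837. R837 replicate 3 was low and the other libraries were close together. The log2 change was 0.05 with a fold interval of 0.873 to 1.23 (adjusted p = 0.821, limma), and it was -0.09 without R837 replicate 3. Cflar, the inhibitor (ENSMUSG00000026031.15, chromosome 1, 58711508 to 58758884, plus strand), lies upstream of Casp8 on the same strand. It had 28445, 29455 and 28377 with taurine and 30136, 29113 and 26555 with R837, again lowest in R837 replicate 3. Its interval was the narrowest of the 8, 0.911 to 1.11-fold (log2 change 0.01, adjusted p = 0.951, limma). After removal of the trends with exon length and GC content, under which 6.34% of genes were called and Fas and Mlkl still passed, Cflar had a log2 change of 0.20 (adjusted p = 0.0543).

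Casp9, the initiator of the mitochondrial route (ENSMUSG00000028914.13, chromosome 4, 141793612 to 141815976, plus strand), had 654, 573 and 673 with taurine and 693, 706 and 578 with R837. The groups overlapped, with a fold of 0.963 and an interval of 0.785 to 1.18 (adjusted p = 0.844, limma). Casp6, an executioner (ENSMUSG00000027997.9, chromosome 3, 129901425 to 129914103, plus strand), was scarce, with 76.7, 137 and 111 with taurine and 109, 93.4 and 80.2 with R837. Taurine replicate 1 was the lowest of the 6 libraries and taurine replicate 2 the highest. Its interval was the widest of the 8, from 0.730 to 1.74-fold (adjusted p = 0.757, limma), so these libraries leave its direction undetermined.

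Ripk1 (ENSMUSG00000021408.15, chromosome 13, 34002363 to 34037147, plus strand) had 3396, 3341 and 3040.1 with taurine and 2896, 3188 and 3171 with R837. Its fold was 1.06 with an interval of 0.926 to 1.20 (adjusted p = 0.618, limma), and taurine replicate 3 lay inside the R837 range. Ripk1 exons share 241 bases with the antisense neighbour Serpinb6a and 511 with the pseudogene Gm17084, so its reads are uncertain in part, and with the reads of overlapping genes added the log2 change was 0.10, against 0.08 without them. After removal of the trends with exon length and GC content Ripk1 had a log2 change of 0.23 (adjusted p = 0.129, limma).

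**Figure D2:**
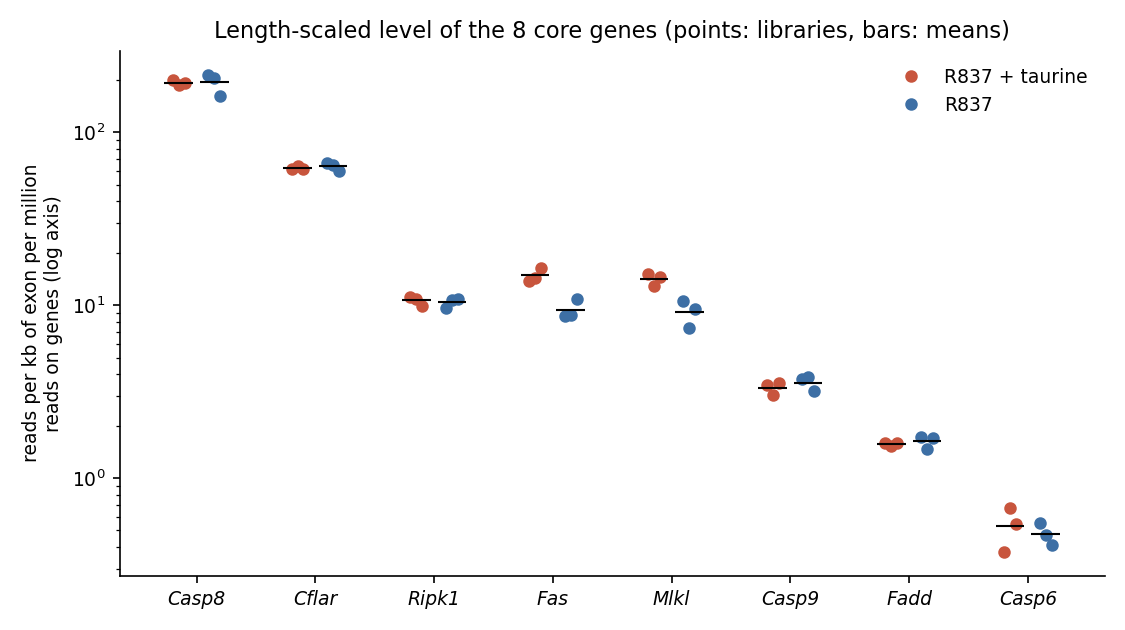
Length-scaled level of the 8 genes in each library on a log axis, in RPKM (reads scaled by kilobases of annotated exon and by the library's reads on genes), with R837 plus taurine in red, R837 in blue and black bars for the means of 3 libraries. Casp8 stands highest and Casp6 lowest in both groups, and Fas and Mlkl lie above Ripk1 with taurine but beside it with R837 alone.

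Scaled by exon length, the 8 transcripts covered a wide range of levels. In RPKM computed from the recovered reads, Casp8 averaged 194 ± 5.89 with taurine and 195 ± 29.2 with R837 (SD, n = 3), and Cflar 62.1 ± 1.31 and 63.8 ± 3.47. Initiator and inhibitor were thus the most abundant of the 8 per length in every library. Fas averaged 14.9 ± 1.33 with taurine and 9.45 ± 1.21 with R837, Mlkl 14.3 ± 1.21 and 9.16 ± 1.63, and Ripk1 10.7 ± 0.635 and 10.5 ± 0.643. With R837 alone these 3 neighbours overlapped in range, whereas with taurine every Fas and Mlkl value lay above every Ripk1 value. Below them came Casp9 with 3.34 ± 0.279 and 3.58 ± 0.354, Fadd with 1.58 ± 0.0318 and 1.64 ± 0.145, and Casp6 with 0.531 ± 0.148 and 0.477 ± 0.0693. Exon length is the union of all annotated exons, 12669 bases for Cflar against 2893 for Casp8, so unused exons lower a level on this scale. In bulk samples, fewer cells of a type and less RNA per cell cannot be told apart.

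Ratios within a library describe the balance of these components without any scaling between libraries, but they keep trends with exon length. With trends in exon length and GC content removed, Cflar and Casp8 had log2 changes of 0.20 and 0.11, against 0.01 and 0.05 as reported (limma). The level of Cflar over Casp8, inhibitor over initiator, was 0.307, 0.338 and 0.318 with taurine and 0.308, 0.314 and 0.371 with R837 (two-sided exact permutation p = 0.8). Fas over Fadd was 8.67, 9.39 and 10.3 with taurine, above the 4.99, 5.98 and 6.32 with R837 (exact permutation p = 0.1). The ratio of Mlkl to its kinase Ripk3 was 5.61, 7.02 and 6.04 with taurine and 5.62, 3.07 and 4.23 with R837, where R837 replicate 1 reached the taurine range (exact permutation p = 0.2). The smallest p that 3 against 3 libraries allow is 0.1, and adjusted over the 3 ratios (Benjamini-Hochberg) the exact permutation p-values were 0.8, 0.3 and 0.3.

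**Figure D3:**
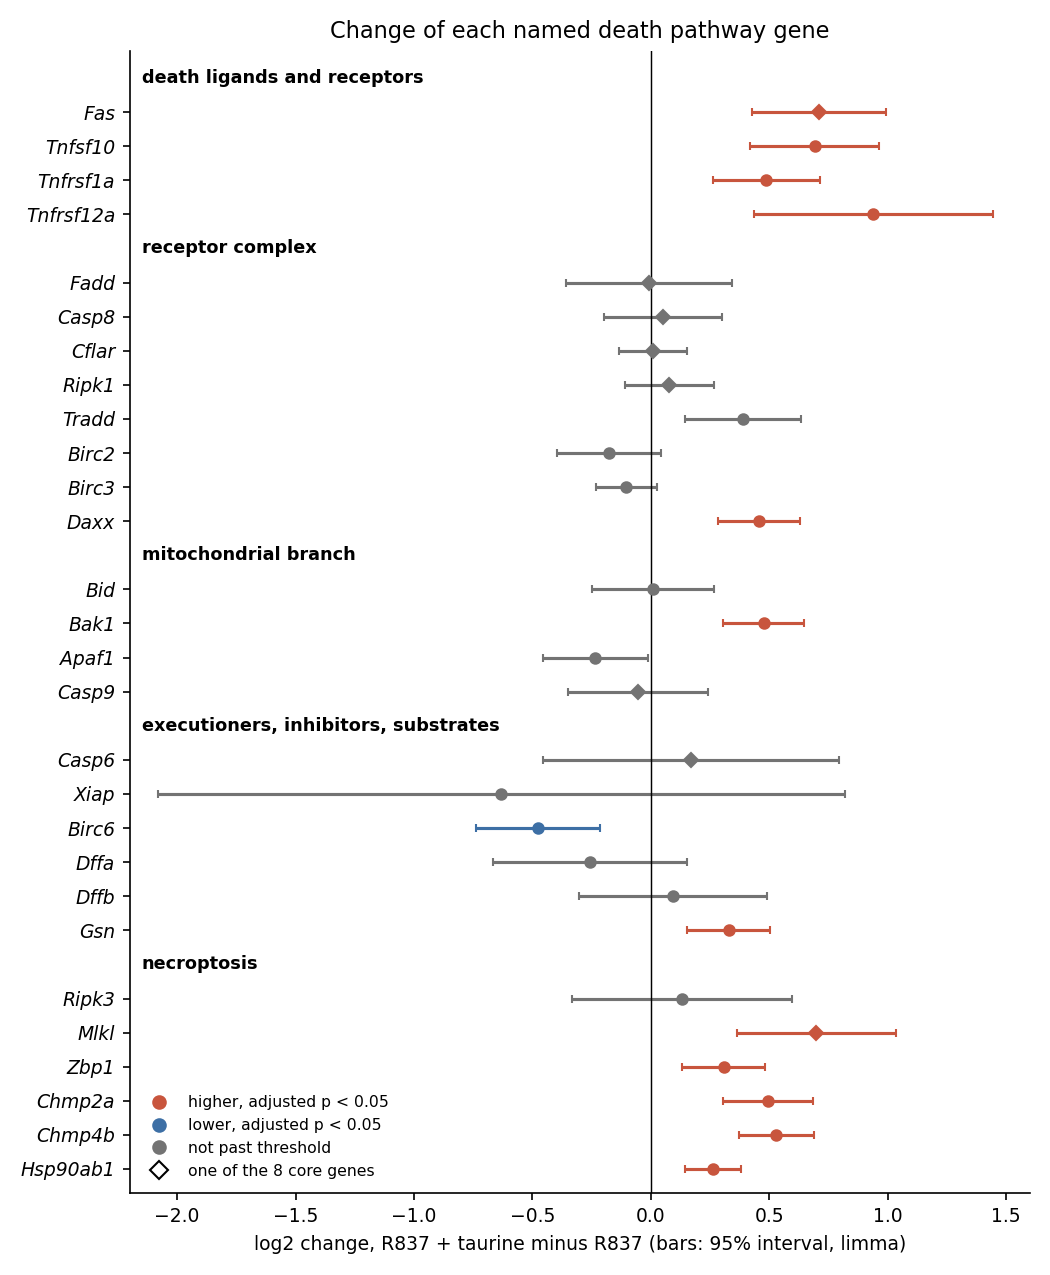
Log2 change, R837 plus taurine minus R837, of each named and tested death pathway gene with its 95% interval from limma, grouped by role. Diamonds are the 8 genes, red marks genes called higher, blue the 1 called lower, and grey those not past the threshold, among them Fadd, Casp8, Cflar, Ripk1, Casp9 and Casp6.

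The same fit gave the rest of the pathway, for which 68 further genes are reported, 63 of them tested. Of these 10 were higher and 1 was lower with taurine, and their median log2 change was 0.05. Over all tested genes 6.41% were called and the median log2 change was -0.01. At an unadjusted p under 0.05, which 23.7% of all tested genes reached, the numbers were 19 and 5 (limma). Leaving out taurine replicate 1, 2 or 3 gave 3, 3 and 1 calls, and leaving out R837 replicate 1, 2 or 3 gave 4, 1 and 12.

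Among death ligands and receptors 3 of 8 tested genes were higher and 0 were lower (limma, and 4 and 0 at an unadjusted p under 0.05). The shares over all tested genes were 6.41% called and 23.7% at an unadjusted p under 0.05 (limma). Tnfsf10, the death ligand TRAIL, had 1203, 1301 and 1141 with taurine and 859.5, 713 and 691 with R837 (log2 change 0.69, adjusted p = 0.0157, limma). Tnfrsf1a, the TNF receptor with a death domain, had 2572, 2414 and 2959 against 1911, 1770.2 and 1967 with R837 (log2 change 0.49, adjusted p = 0.0273). Tnfrsf12a, the receptor for TWEAK, was scarce, with 127, 143 and 135 against 77.4, 74.1 and 59.3 with R837 (log2 change 0.94, adjusted p = 0.0436). These groups did not overlap. The ligand of Fas itself was nearly absent: Fasl had 0, 4 and 0 reads with taurine and 6, 0 and 5 with R837, too few to test. T cells and NK cells are the usual sources of Fas ligand. Of 8 T cell markers 3 were tested, Cd3d and Cd3g were at 0 in every library, and the list summed to 426 to 592 with taurine and 498 to 587 with R837. Most of the T cell sum was Cd28, with 214 to 331 with taurine and 201 to 336 with R837, and Cd247, with 138 to 195 and 198 to 256. Cd3e, Trac and Trbc2 reached at most 13.5 in any library. Of 6 NK markers 2 were tested, and the list summed to 2689 to 3155 with taurine and 2728 to 3459.7 with R837. Most of that sum was Klrk1, the activating receptor NKG2D, with 2655, 2839 and 3129 with taurine and 2663, 3402 and 3428 with R837, while Gzma and Prf1 were at 0 in every library.

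Of 20 adaptors and ligases of the receptor complexes 1 was higher and 0 were lower (limma), with a median log2 change of -0.07. At an unadjusted p under 0.05 the numbers were 6 and 1. The shares over all tested genes were 6.41% called and 23.7% unadjusted (limma). The called gene was Daxx, a nuclear protein first described as a partner of Fas, with 16909, 15743 and 18435 with taurine and 12155, 11857 and 13158 with R837 (log2 change 0.46, adjusted p = 0.0147, limma). Tradd, the death-domain adaptor of Tnfrsf1a, had 943, 913 and 929.9 against 659, 693 and 778 with R837. Its groups did not overlap, but it did not pass (log2 change 0.39, adjusted p = 0.0670). The ubiquitin ligases Birc2 and Birc3 (cIAP1 and cIAP2), which hold Ripk1 in its survival role, had log2 changes of -0.17 and -0.10 (adjusted p = 0.314 and 0.315). Xiap, the direct caspase inhibitor, varied widely inside both groups, with 1534, 7768 and 2262 with taurine and 1982, 6351 and 7948 with R837. Its interval reached from 0.236 to 1.77-fold (adjusted p = 0.600, limma), so nothing can be said of its direction.

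Of the other caspases and caspase regulators 9 tested genes are reported. Birc6, a very large ubiquitin ligase that inhibits caspases, was the 1 gene among them past the threshold, with 9841, 10185 and 8411 with taurine against 14732, 13845 and 11140.0 with R837 (log2 change -0.48, adjusted p = 0.0464). With the length and GC trends removed it had -0.23 (adjusted p = 0.131). It shares 611 of its 25772 exon bases with the antisense gene Gm26749, so its reads are uncertain in part. Gm26749 had 119 to 186 with taurine and 140 to 300 with R837. Casp12 and Casp14 had no read in any library. At an unadjusted p under 0.05 (limma) 2 of the 9 were higher and 1 was lower. The shares over all tested genes were 6.41% called and 23.7% unadjusted.

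Of 7 genes of the mitochondrial branch 1 was higher and 0 were lower (limma, and 2 and 1 at an unadjusted p under 0.05). As background for this list and the caspase substrates below, 6.41% of all tested genes were called and 23.7% passed unadjusted (limma). Bak1, a pore former of the outer mitochondrial membrane, had 4277, 4161 and 4358 with taurine and 3021, 2928 and 3254 with R837 (log2 change 0.48, adjusted p = 0.0129). Bid, which caspase-8 cleaves to connect the Fas route to mitochondria, had 670.4, 603 and 576 against 625, 591 and 619 with R837 (log2 change 0.01, adjusted p = 0.9753). Apaf1, the platform that activates caspase-9, had 2823, 3195 and 3014 against 3189, 3521 and 3939 (log2 change -0.23, adjusted p = 0.190). Exons of Bak1 and of Bid overlap a gene on the other strand, so their reads are uncertain in part. Among 11 caspase substrates 1 was higher and 0 were lower (limma; 1 and 2 at an unadjusted p under 0.05). This was Gsn, the actin-severing protein gelsolin (log2 change 0.33, adjusted p = 0.0421), which did not pass with the length and GC trends removed (0.25, adjusted p = 0.0878). Dffa and Dffb, the inhibitor and the nuclease of DNA fragmentation, had -0.26 and 0.09 (adjusted p = 0.430 and 0.794). Tnfrsf12a likewise did not pass with these trends removed (0.83, adjusted p = 0.0697).

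On the necroptosis side 4 of 8 tested genes were higher besides Mlkl, and 0 were lower (limma, with the same numbers at an unadjusted p under 0.05). Over all tested genes 6.41% were called and 23.7% had an unadjusted p under 0.05 (limma). This list was chosen with earlier results of these data known. Ripk3, the kinase that phosphorylates Mlkl, had 228, 154 and 203 with taurine and 154, 194 and 181 with R837 (log2 change 0.13, interval 0.794 to 1.51-fold, adjusted p = 0.747). Zbp1, an interferon-induced nucleic acid sensor that engages Ripk3, had 13279, 12964 and 13588 against 9692, 11476 and 11098 with R837. Its adjusted p of 0.04997 (limma, log2 change 0.31) stood just under the threshold. Zbp1 did not pass in 12 of 18 alternatives, among them edgeR (adjusted p = 0.0508) and quantile normalization (adjusted p = 0.122, limma). Chmp4b and Chmp2a are subunits of the ESCRT-III complex, which among other tasks removes membrane damaged by Mlkl. They had log2 changes of 0.53 and 0.50 (adjusted p = 0.00695 and 0.0146, limma). The fourth was Hsp90ab1, a general chaperone that also holds Ripk3 and Mlkl, with 0.26 (adjusted p = 0.0243), or 0.12 (adjusted p = 0.169) under quantile normalization. Processed copies of Hsp90ab1 exist in the genome, so its reads are uncertain. Of the called genes of the list, Chmp4b held with any 1 library left out, Bak1, Chmp2a, Daxx and Tnfsf10 in 4, 3, 2 and 2 of the 6 fits, Tnfrsf1a, Hsp90ab1, Gsn, Zbp1 and Birc6 in 1, and Tnfrsf12a in 0.

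**Figure D4:**
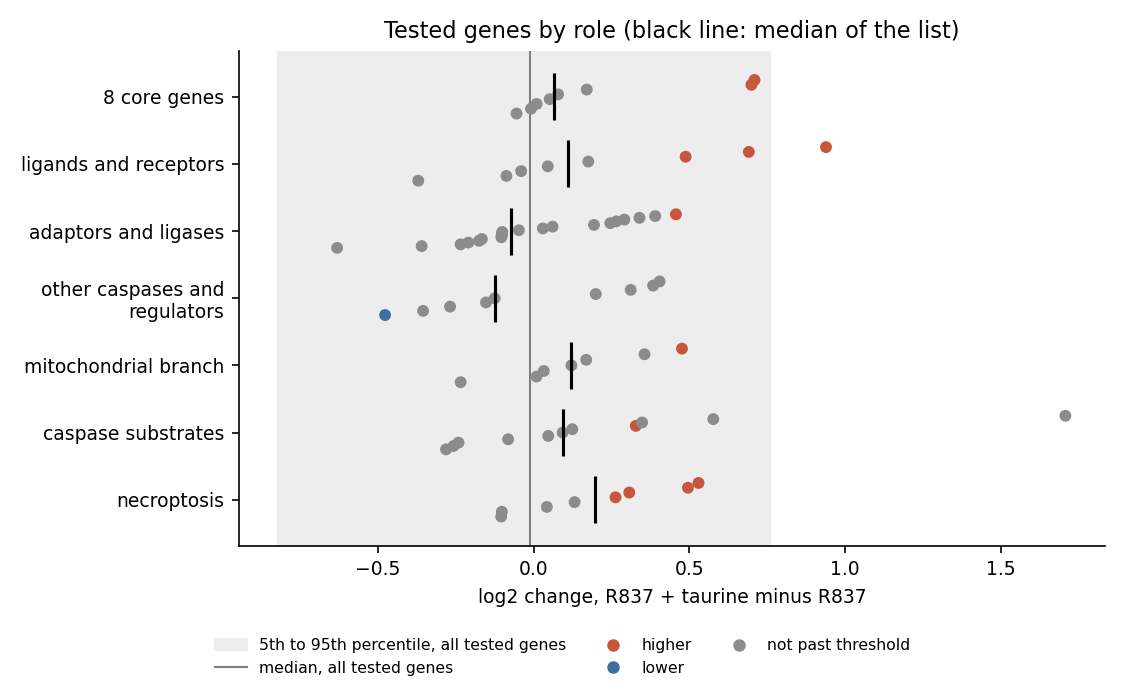
Log2 change, R837 plus taurine minus R837, of the reported and tested genes of the pathway by role, with the median of each list as a black line. The shaded band holds the middle 90% of all 15265 tested genes, from -0.82 to 0.76, and the calls lie to the right of 0 except for Birc6 among the other caspases and regulators.

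The genes whose pattern over the 6 libraries was most like that of Fas were sought among 10704 tested genes with a mean normalized count of at least 100. Likeness was the root-mean-square difference of log2 values, each centred on its own mean. The nearest were Actn1 (alpha-actinin, 0.0379), Ppdpf (0.0460), Cacnb3 (a calcium channel subunit, 0.0572), the ribosomal protein pseudogene Rpsa-ps10 (0.0584) and Isg20 (an interferon-induced exonuclease, 0.0642). Actn1 had 12589.6, 13188 and 14169.7 with taurine and 7286, 7854 and 9341 with R837, with R837 replicate 3 highest in its group as for Fas. The shared pattern follows from how these genes were picked and is no separate result.

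**Figure D5:**
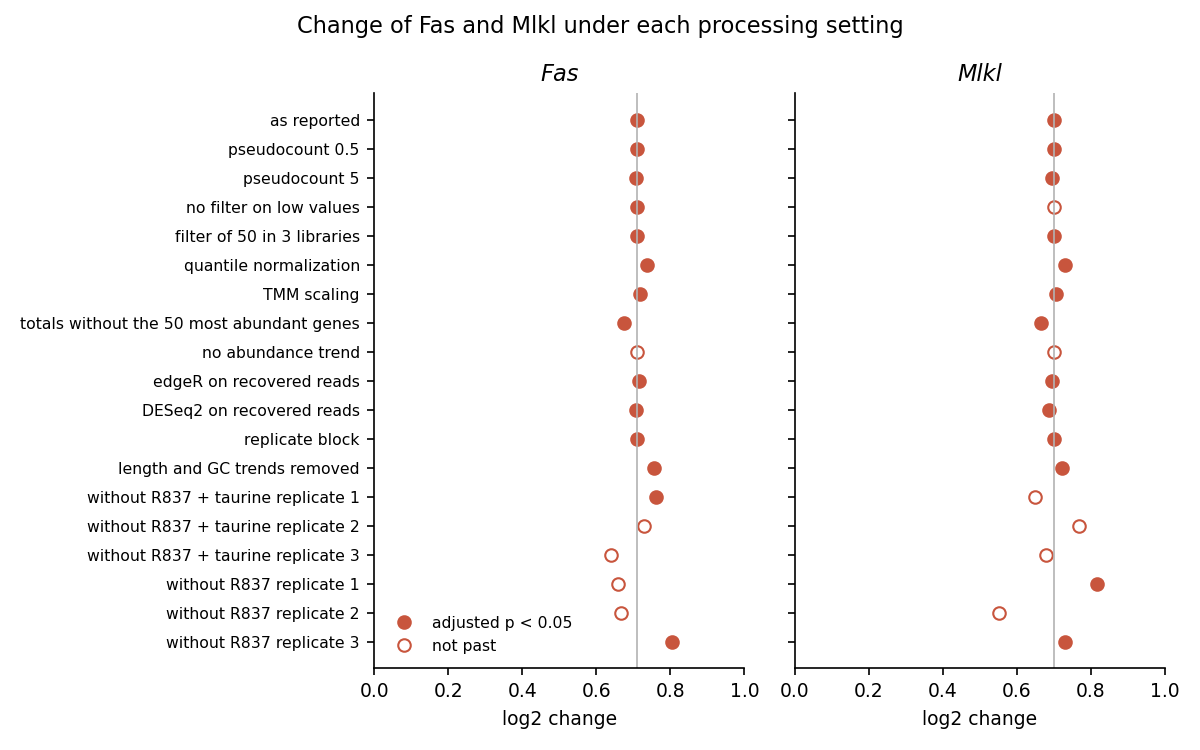
Log2 change, R837 plus taurine minus R837, of Fas and Mlkl as reported and under each alternative processing, filled where the adjusted p was under 0.05 and open where it was not. The points lie between 0.55 and 0.82, and both genes have open points for several left-out libraries and without an abundance trend.

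Measures of the whole series stood as follows, some of them apart between the groups and some overlapping. Reads on genes overlapped, with 34449848 to 38392654 per library with taurine and 33585080 to 37848601 with R837. On the first principal component of all tested genes, which held 29.0% of the variance, R837 replicate 3 stood at -12.8. R837 replicates 1 and 2 stood at -43.8 and -47.6, and the taurine libraries at 29.6 to 43.5. The 10 most abundant genes held 5.29% to 5.50% of the reads with taurine and 4.71% to 5.11% with R837. Across genes, which are not independent, exon length and a library's deviation from the mean of all had a Spearman rho of -0.203 to -0.100 in taurine libraries and 0.0443 to 0.147 in R837 libraries. With that trend and the GC trend removed, Fas and Mlkl had log2 changes of 0.76 and 0.72. The 12 markers of plasmacytoid dendritic cells summed to 367697 to 387618 with taurine and 351792 to 374086 with R837, with Siglech at 10336 to 11919 and 10647 to 13384, so the defining markers were present in every library. Of these 12 markers 2 were higher and 4 lower at an adjusted p under 0.05 (limma), where 6.41% of all tested genes were called. The higher ones were Bst2 and Cox6a2, with log2 changes of 0.38 and 0.55. The lower ones were Runx2, Tcf4, Pacsin1 and Klk1, with -0.60, -0.51, -0.38 and -0.35. Of 6 neutrophil markers 1 was higher, Ngp (log2 change 0.76), with sums of 1687 to 1931 with taurine and 1161 to 1659.6 with R837. S100a8, S100a9 and Mpo had 0.46, 0.21 and 0.25, Camp and Ltf had -0.57 and -0.10, and none of these passed. Of 5 erythroid markers 1 was higher, Hba-a1, with sums of 126 to 162 with taurine and 50.005 to 88.5 with R837. Of 6 macrophage and monocyte markers 0 were called, with sums of 19639 to 24048 with taurine and 19439 to 20659 with R837. Of 6 B cell markers 0 were called. The 6 markers of conventional dendritic cells, 1 of them lower, summed to 19562 to 20359 and 22814 to 23814. Their part in the changes of Fas and Mlkl was not tested.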

How the data were processed

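Messenger RNA libraries of mouse splenic plasmacytoid dendritic cells, 3 with R837 plus taurine and 3 with R837, were made with an mRNA-seq kit, per the labels' protocols. The authors deposited 1 file per library with a normalized count signal for 52550 genes, per the file headers. The submitters' processing notes list HISAT2 and StringTie as tools and mm10 and mm8 as builds, without roles. How reads were counted, whether by strand, and how they were normalized is not given in the sources used here. GENCODE M21 holds 52403 of the identifiers, 95.2% with the same coordinates, so coordinates are given as mm10. Spreadsheet date numbers in place of 27 symbols were replaced by identifier.

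Divided by a library's smallest step, values came out whole (100% within 0.001 reads), so reads were recovered, 33585080 to 38392654 per library with size factors of 0.942 to 1.06. Counting error is therefore small for all but the scarcest genes. The test was limma 3.58.1 (R 4.3.3) with an abundance trend on log2(normalized count + 1), which understates changes of low genes. Genes needed at least 10 in at least 3 libraries, leaving 15265, with Benjamini-Hochberg adjustment over all of them and a threshold of 0.05. edgeR 4.0.16 and DESeq2 1.42.0 on recovered reads, other scalings, filters and pseudocounts, left-out libraries, a replicate block and removal of length and GC trends (mgcv 1.9.3) were alternatives. The limma step was tested on simulated data. Level per length used the union of annotated exons.

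The 8 genes and all lists were chosen with earlier results of these data known. Named genes are the 8, a fixed set of partners, and up to 12 further pathway genes past the threshold by smallest adjusted p. The genes most like Fas were sought because it had the smallest adjusted p of the 8. A few genes of the pathway are not reported here, and the counts given for the pathway lists leave them out.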

Additional observations from a re-analysis of the deposited data

How the results depend on the processing

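Of all genes 979 were called, 573 higher and 406 lower (58.5% higher). With totals taken without the 50 most abundant genes the split was 462 higher and 585 lower (44.1% higher). The count was 547 without a filter, 4 without an abundance trend (3217 at an unadjusted p under 0.05), 1808 with DESeq2 and 615 with a replicate block. With 1 library left out it ran from 134 (without R837 replicate 2) to 1477 (without R837 replicate 3). Of the 8 genes 2 were called, against 1 (Fas) without a filter, 0 without an abundance trend (2 unadjusted) and 0 to 2 with 1 library left out. Of the other pathway genes 11 were called, against 6 without a filter, 0 without an abundance trend (19 unadjusted), 18 with DESeq2, 7 with a replicate block and 1 to 12 with 1 library left out. Without an abundance trend the adjusted p (limma) was 0.0973 for Fas and 0.127 for Mlkl, and without a filter it was 0.0583 for Mlkl. The cause was not tested.

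Some log2 changes that did not pass the threshold changed sign. Fadd had 0.0184 under quantile normalization and 0.00565 with length and GC trends removed, and -0.0824 to 0.0414 with 1 library left out. Cflar had -0.0758 under quantile normalization, -0.0241 without the 50 most abundant genes, and -0.0428 to 0.0485 with 1 library left out. Casp8 had -0.0208 under quantile normalization and -0.0853 to 0.14 with 1 library left out, Casp6 had -0.0166 to 0.40 and Casp9 -0.15 to 0.0157. Bid had -0.0245 without the 50 most abundant genes and -0.0521 to 0.0567 with 1 library left out, and Birc3 had 0.000906 with length and GC trends removed. Of 512 values of named genes under an alternative, 409 kept direction and side of the threshold, 84 lost the threshold, 2 gained it and 17 changed sign.

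Replicate numbers are shared by the groups, and nothing in the labels says that they pair the libraries. Deviations of same-numbered libraries correlated at -0.00264, -0.00681 and -0.0434, and those of differently numbered libraries at -0.0241 to 0.0288. With 3 libraries per group these values cannot decide whether the libraries were paired. With the replicate block Fas and Mlkl passed (adjusted p = 0.0286 and 0.0348, limma), while Zbp1, Hsp90ab1, Gsn and Tnfrsf12a did not (0.0765, 0.0512, 0.0772 and 0.0843). Casp6, Fadd, Ripk3 and Tnfrsf12a were the scarcest of the named genes that were tested, and how far depth limits their values was not tested.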
